A study of Mus musculus with 4 samples.

Results

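The circadian clock genes described here are Arntl (also called Bmal1), Clock, Per2, Per3, Cry1, Cry2, Nr1d1, Nr1d2, Dbp and Tef. They were chosen by symbol, as every probe set annotated to exactly 1 of these genes, which gave 10 of the 18193 genes and 25 of the 34945 probe sets with a single symbol. Expression was measured in C2C12, a mouse muscle precursor line whose cells stop dividing and form myotubes in low serum. The shLSD1 cells (2 arrays) carried a stably selected plasmid encoding a short hairpin RNA against LSD1, and the shControl cells (2 arrays) carried a non-targeting hairpin on the same kind of plasmid. Both kinds of cell were selected and grown in hygromycin, moved from fetal bovine serum to low horse serum, and collected 48 hours after that switch. The labels give no more than 1 stable selection for each hairpin, so selection and knockdown cannot be told apart. Separate cultures behind the arrays are not stated either, and the p-values then cover only the array-to-array spread, which may be technical. All arrays come from 1 time point, so the phase or amplitude of a rhythm cannot be read from them.

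The clock is a loop of transcription and repression that runs in most cells, muscle included. CLOCK and BMAL1, the protein of Arntl, pair and bind E-box sequences to activate the Per and Cry genes, whose proteins return to the nucleus and repress the pair. The same pair activates Nr1d1 and Nr1d2, which encode the repressors REV-ERB alpha and beta and act on Arntl through ROR elements, and Dbp and Tef, whose proteins activate genes through D-boxes. LSD1, a histone demethylase encoded by Kdm1a, has been described in mouse cells as a partner of CLOCK and BMAL1 at E-boxes once protein kinase C alpha has phosphorylated it. The comparison therefore asks whether clock transcripts differ when LSD1 is depleted in differentiating muscle cells.

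The values are MAS5 signals, linear intensities per probe set scaled by the authors to a common trimmed mean on each array. The median signal was between 67.1 and 69.4 on the 4 arrays, whose small number limits the precision. Kdm1a had signals of 922 and 1034.5 on the shLSD1 arrays, against 4603 and 4588 on the shControl arrays, or 21.3% of control (limma, Benjamini-Hochberg adjusted p = 2.89e-05). The 8 skeletal muscle markers checked all lay above the signal filter, and 6 of them fell in shLSD1 cells. Their signals summed to 99844 and 106100 on the shLSD1 arrays and to 145960 and 144123 on the shControl arrays. The 7 measured markers of adipocytes, endothelium and leukocytes all lay below the filter, with summed signals of 124 and 151 on the shLSD1 arrays and 125 and 139 on the shControl arrays. The part of this lower muscle-marker signal in the clock values was not tested. In a bulk sample, fewer cells of a type and less RNA per cell cannot be told apart.

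Letters of the known clock elements were looked for in the promoters of these genes, and the stretches that hold them are printed here. A match describes the sequence only, and no binding was measured. RefSeq promoter windows (GRCm38.p6, 250 bases before to 50 after a gene start) were found for 9 members, in 13 windows, and Per2 had no entry. They were searched on both strands for the E-box CACGTG, the D-box TTATGTAA or TTACGTAA, and the ROR element core TAGGTCA, and no matches overlapped in the stretches printed here. An E-box stood in the window of Cry1 and in both windows of Tef, thus in 2 members. Of all 32851 windows of 300 bases, 7.15% held an E-box. The D-box TTATGTAA stood in the window of Per3 (0.938% of all windows), TTACGTAA in none (0.119%), and the ROR core in 1 window of Arntl (2.61%). The printed stretches run 5′ to 3′ on the gene's strand with the matched letters in capitals.
Cry1, chr10:85185069-85185154, minus strand, E-box 60 bases before the start: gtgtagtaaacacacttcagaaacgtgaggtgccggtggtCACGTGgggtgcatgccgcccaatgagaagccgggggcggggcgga
Tef, chr15:81802506-81802591, plus strand, E-box 127 bases before the start: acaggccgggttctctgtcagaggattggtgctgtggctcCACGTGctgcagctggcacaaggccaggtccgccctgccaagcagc
Tef, chr15:81811236-81811321, plus strand, E-box 138 bases before a second start: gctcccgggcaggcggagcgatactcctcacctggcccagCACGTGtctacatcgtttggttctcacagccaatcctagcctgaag
Per3, chr4:151044776-151044910, minus strand, 2 D-boxes, the first 205 bases before the start: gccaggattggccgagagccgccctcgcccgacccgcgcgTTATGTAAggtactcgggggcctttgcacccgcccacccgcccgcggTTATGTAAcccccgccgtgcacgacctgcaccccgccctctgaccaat
Arntl, chr7:113207530-113207558, plus strand, ROR core 30 bases after a start: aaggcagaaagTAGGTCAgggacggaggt

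None of the 10 clock genes passed the test in shLSD1 cells. All 10 had a representative probe set above the signal filter of 65.4 (the median of all probe sets), and 0 rose and 0 fell at a limma adjusted p under 0.05. Over all 10879 tested genes, 1723 or 15.8% were called, with 8.75% higher and 7.09% lower in shLSD1 cells. Whether 0 of 10 differs from that share was not tested. Fewer genes were called when either shControl array was left out, and more when either shLSD1 array was left out. The cause was not tested. At an unadjusted limma p under 0.05, 1 clock gene remained, which was Clock, against 31% of all tested genes. The members' median log2 fold change, shLSD1 minus shControl, was -0.10, with 8 below 0 and 2 above, and that of all tested genes was 0.00. Their median absolute log2 change was 0.149, against 0.150 over all tested genes. The shLSD1 and shControl arrays did not overlap for 6 of the 10, of which 5 were lower and 1 higher in shLSD1 cells, and likewise for 60.1% of all tested genes.

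The intervals give the precision of the representative probe sets, 1 for each gene. There, the 95% interval of the log2 fold change lay within -1 and 1, a 2-fold change either way, for 10 of 10 members and for 90.5% of all tested genes. A second, dimmer Arntl probe set, described with Arntl, had an interval that reached beyond -1. It lay within -0.5 and 0.5 for 5 of 10, which were Arntl, Clock, Nr1d2, Dbp and Tef, and for 61.9% of all tested genes. The other 5, Per2, Per3, Cry1, Cry2 and Nr1d1, were measured less precisely, and smaller shifts in them were not detectable with 2 arrays a group.

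**Figure D1:**
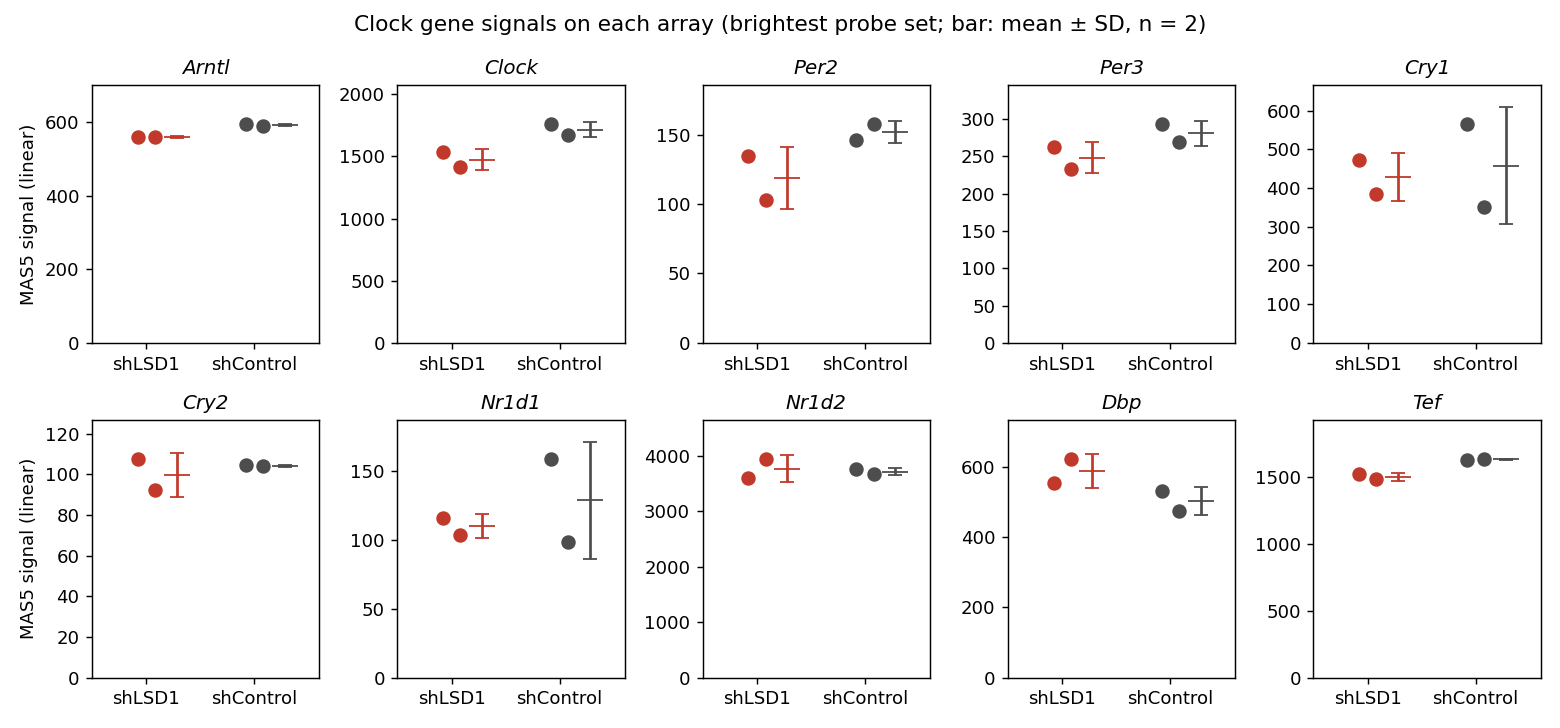
MAS5 signal (linear scale from 0, a scale of its own for each gene) of the representative probe set of each clock gene, with 1 point per array and a bar for the mean ± SD (n = 2), shLSD1 on the left and shControl on the right. Both shLSD1 points lie below both shControl points for Arntl, Clock, Per2, Per3 and Tef, and above them for Dbp.

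Of the activating pair, Clock (probe set 1418659_at) had signals of 1533 and 1416 on the shLSD1 arrays, against 1758 and 1673 on the shControl arrays. Both shLSD1 arrays were lower than either shControl array. The log2 fold change was -0.22 (SE 0.07, 95% interval -0.38 to -0.06, limma adjusted p = 0.0750), or 0.859 of control, which missed the threshold. Over the alternatives its adjusted p ranged between 0.0326 and 0.351. It passed without shLSD1 replicate 1 (-0.28, limma adjusted p = 0.0326) and with the replicate number as a block (-0.22, limma adjusted p = 0.0476), where 1 clock gene was called lower.

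The other Clock probe sets lay on the same side of 0. All 4 Clock probe sets were above the filter, all 4 were lower in shLSD1 cells, and none had overlapping groups. Probe set 1435775_at gave 392.3 and 389 on the shLSD1 arrays and 480.4 and 559.5 on the shControl arrays. The log2 fold change there was -0.41 with an SE of 0.12 (limma adjusted p = 0.0610 over all probe sets). Probe sets 1418660_at and 1439314_at gave -0.29 and -0.34. The latter was dim, with signals of 67.3 and 63.5 on the shLSD1 arrays, around the filter of 65.4. Its signals on the shControl arrays were 88.0 and 78.0. Probe sets of 1 gene share the same RNA and arrays, so they are not separate replicates.

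Arntl, the partner of Clock, had signals of 559 and 561 on the shLSD1 arrays, against 595 and 589.9 on the shControl arrays, on its brightest probe set, 1425099_a_at. The groups did not overlap, yet the difference was small, at -0.08 in log2 (SE 0.09, 95% interval -0.29 to 0.13, limma adjusted p = 0.594). The dimmer Arntl probe set, 1457740_at, gave 45.9 and 72.6 on the shLSD1 arrays, against 140.1 and 118 on the shControl arrays. Its log2 fold change was -1.15 (SE 0.30, 95% interval -1.85 to -0.46, limma adjusted p = 0.0444 over all 19958 probe sets above the filter), or 0.449 of control. The mean shLSD1 signal of 59.3 lay under the filter of 65.4, so this probe set was tested because of its shControl signals. The Arntl probe sets thus disagree in size, and with the mean of both the log2 fold change was -0.62 (limma adjusted p = 0.0786).

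Among the repressors of the pair, Per2 (1417602_at) had signals of 135 and 103 on the shLSD1 arrays, against 146 and 157 on the shControl arrays. All of its shLSD1 values were below its shControl values, and the 2 shLSD1 arrays were farther apart than the 2 shControl arrays. The log2 fold change was -0.36 (SE 0.22, 95% interval -0.87 to 0.14, limma adjusted p = 0.305), the largest absolute value among the 10 representative probe sets, and 18.4% of all tested genes moved more. It was -0.56 without shLSD1 replicate 1 and -0.17 without shLSD1 replicate 2. Its other probe sets, 1417603_at and 1457350_at, lay below the filter at -0.37 and -2.01, and the value of 1457350_at includes a signal of 4.21 on the shLSD1 replicate 2 array.

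Per3, a Period gene that the core loop can run without in mice, had signals on 1421087_at of 263 and 234 on the shLSD1 arrays, against 293 and 269.5 on the shControl arrays. Both shLSD1 arrays were lower, by a small margin, and the log2 fold change was -0.18 (SE 0.14, 95% interval -0.51 to 0.15, limma adjusted p = 0.438). The 6 Per3 probe sets did not share a direction, with 2 lower and 4 higher in shLSD1 cells. Of the 3 above the filter, 1441445_at and 1442243_at both gave 0.23, and of those below it, 1460662_at gave 38.4 and 40.4 on the shLSD1 arrays, against 70.8 and 84.8 on the shControl arrays.

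The cryptochrome genes encode the repressors that hold CLOCK and BMAL1 inactive, and each had 1 probe set. Cry1 (1433733_a_at) had signals of 471 and 384 on the shLSD1 arrays, against 565 and 351 on the shControl arrays. The shLSD1 values lay between the 2 shControl values, and the log2 fold change was -0.07 (SE 0.22, 95% interval -0.57 to 0.44, limma adjusted p = 0.874). Its sign turned without shControl replicate 1 (0.28) and without shLSD1 replicate 2 (0.08). Cry2 (1426383_at) had signals of 107.5 and 92.1 on the shLSD1 arrays, against 104.6 and 103.9 on the shControl arrays, so the groups overlapped. Its log2 fold change was -0.07 (SE 0.23, 95% interval -0.61 to 0.48, limma adjusted p = 0.880), and 0.045 without shLSD1 replicate 2.

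**Figure D2:**
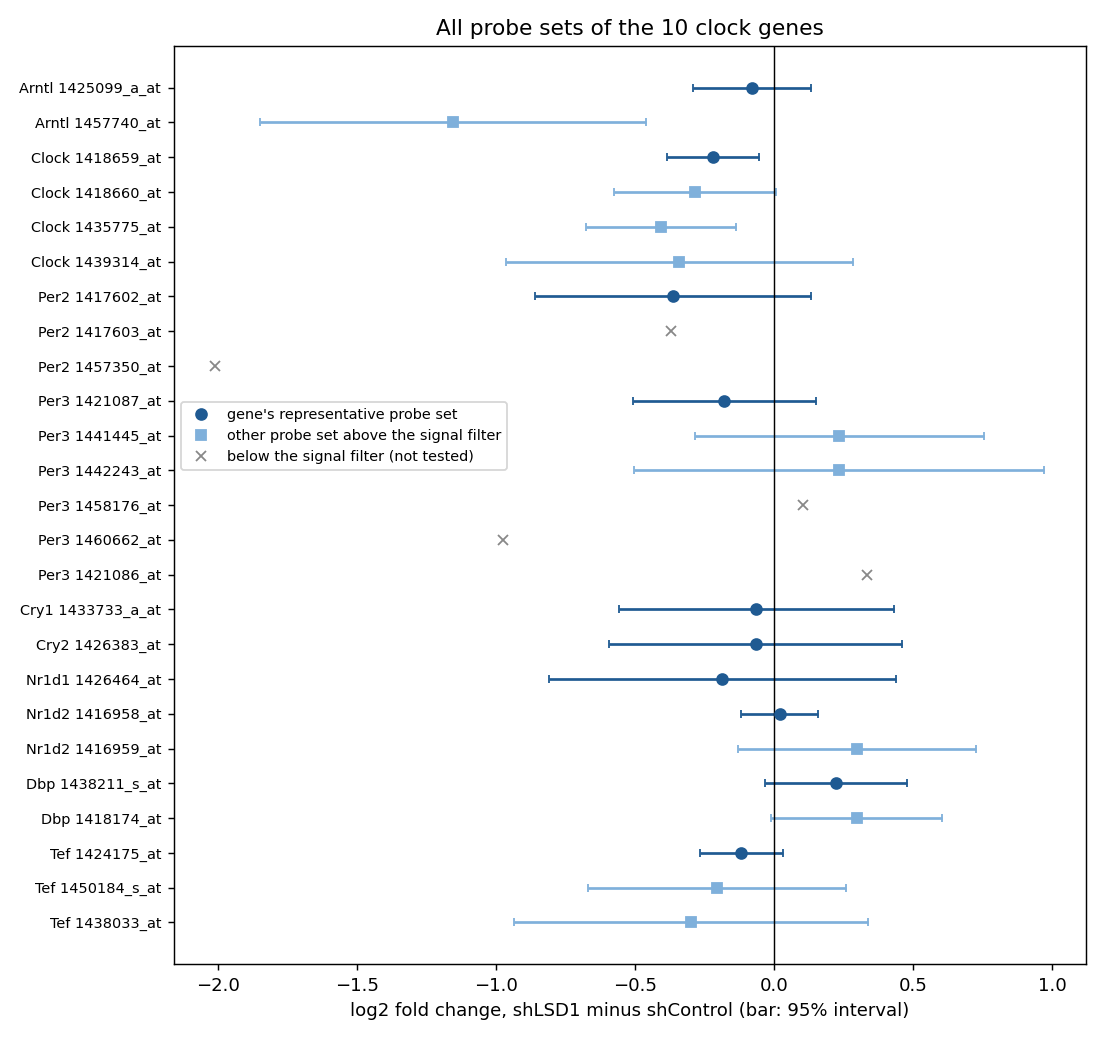
Log2 fold change (shLSD1 minus shControl) of all 25 probe sets of the 10 clock genes, with 95% intervals from limma over all probe sets above the signal filter and crosses for the 5 probe sets below it. The intervals of Clock 1418659_at, Clock 1435775_at and Arntl 1457740_at exclude 0, and only the last has an adjusted p under 0.05 (0.0444). That Arntl probe set passed the filter only through its shControl signals.

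The REV-ERB genes form the second loop, which represses Arntl. Nr1d2 (1416958_at) had signals of 3595 and 3937 on the shLSD1 arrays, against 3756 and 3667 on the shControl arrays. The shLSD1 arrays lay on either side of the shControl arrays, and the log2 fold change was 0.02 (SE 0.06, 95% interval -0.12 to 0.16, limma adjusted p = 0.863), with 92.5% of all tested genes moving more. It was -0.046 without shLSD1 replicate 2 and -0.0013 with median centring. A dimmer Nr1d2 probe set, 1416959_at, gave 157 and 154 on the shLSD1 arrays and 127 and 126 on the shControl arrays, without overlap, at 0.30 (SE 0.19, limma adjusted p = 0.358 over all probe sets). Nr1d1 (1426464_at) had signals of 116 and 104 on the shLSD1 arrays, against 159 and 98.7 on the shControl arrays. The shControl arrays were the highest and the lowest of the 4, and the difference was -0.19 in log2 (SE 0.28, 95% interval -0.83 to 0.46, limma adjusted p = 0.694). It was 0.16 without shControl replicate 1 and -0.53 without shControl replicate 2.

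Dbp and Tef encode related activators of D-box genes, and their values lay on opposite sides of 0. Dbp (1438211_s_at) had signals of 553 and 622 on the shLSD1 arrays, against 531 and 475 on the shControl arrays. It was the member whose shLSD1 arrays were both higher, by 0.22 in log2 (SE 0.11, 95% interval -0.03 to 0.48, limma adjusted p = 0.218). A second Dbp probe set, 1418174_at, gave 438 and 361 on the shLSD1 arrays, against 323 and 325 on the shControl arrays, at 0.30 (SE 0.13, limma adjusted p = 0.205 over all probe sets). Tef (1424175_at) had signals of 1528 and 1486 on the shLSD1 arrays, against 1633 and 1638 on the shControl arrays. Both shLSD1 arrays were lower, and the log2 fold change was -0.12 (SE 0.06, 95% interval -0.26 to 0.03, limma adjusted p = 0.245). Its other probe sets gave -0.21 and -0.30 and were also tested without a call.

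Counted over probe sets, 17 of the 25 were lower and 8 higher in shLSD1 cells. Of the 20 above the filter, 14 were lower and 6 were higher. Among them 1 was called (Arntl 1457740_at, lower), beside 11.8% called over all 19958 probe sets above the filter. That Arntl probe set passed the filter only through its shControl signals. Above the filter, the groups did not overlap for 10 lower and 4 higher of the 20, and for 56.3% of all probe sets. Below the filter, Per2 1457350_at and Per3 1460662_at were also lower without overlap. These dim probe sets were not tested, and no share over all probe sets stands beside them. Of the 7 genes with more than 1 probe set, 6 had all of theirs on the same side of 0, and Per3 did not.

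**Figure D3:**
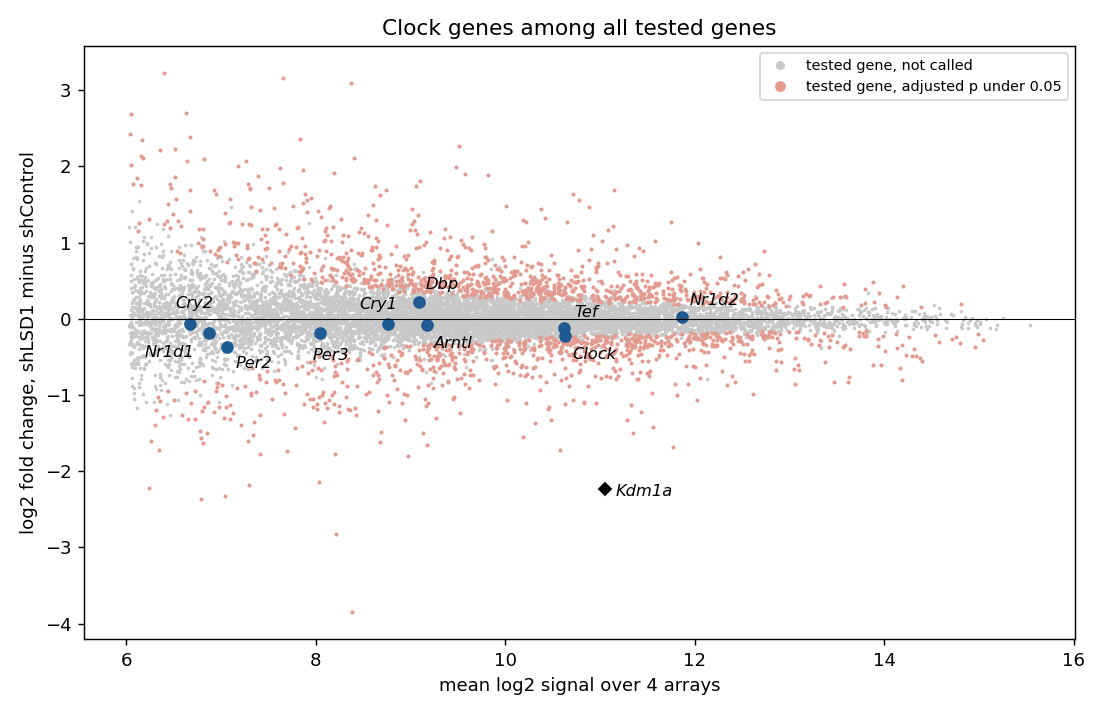
Log2 fold change (shLSD1 minus shControl) against mean log2 signal for the 10879 tested genes, with genes at an adjusted p under 0.05 in red, the 10 clock genes in blue and Kdm1a as a black diamond. The clock genes lie between -0.36 and 0.22 and none is called, with Clock at the lower edge of the grey points, while Kdm1a lies at -2.23.

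A list of other clock factors, not all of them transcription factors, did include genes that passed the test. Besides transcription factors, it holds Per1, Ciart, Timeless and Tipin. Of 9 tested genes in this list, 1 rose and 2 fell, or 33.3% beside 15.8% of all tested genes, with a median log2 fold change of 0.10. Like the lists that follow, it was chosen with earlier results of these data known, so its share is only a description. Rorb, an orphan receptor that activates through ROR elements, had signals of 344 and 291 on the shLSD1 arrays, against 177 and 175 on the shControl arrays. It rose by 0.85 (SE 0.15, limma adjusted p = 9.49e-03), and its other probe sets gave 1.17 and 1.44. Nfil3, a repressor that competes with DBP and TEF at D-boxes, had signals of 563 and 589 on the shLSD1 arrays, against 918 and 759 on the shControl arrays. It fell by 0.53 (SE 0.11, limma adjusted p = 0.0159). Bhlhe40, which encodes the E-box repressor DEC1, had signals of 2748 and 2499 on the shLSD1 arrays, against 3238 and 3356 on the shControl arrays, and fell by 0.33 (SE 0.06, limma adjusted p = 0.0125). Per1 measured 0.09, with a negative sign without shLSD1 replicate 1 (-0.051) or shControl replicate 1 (-0.024), and Rora -0.15 (limma adjusted p = 0.755 and 0.651), and 2 further genes stayed below the filter. Without shControl replicate 1 all 3 calls were lost, at limma adjusted p = 0.0636 for Rorb, 0.130 for Nfil3 and 0.0820 for Bhlhe40. Without shControl replicate 2 those of Rorb (0.0670) and Bhlhe40 (0.118) were lost, and without the intensity trend those of Nfil3 (0.0808) and Bhlhe40 (0.0969).

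The kinases, ubiquitin ligases and chromatin cofactors that act on clock proteins showed few differences. Of 20 tested, 0 rose and 1 fell, or 5% beside 15.8% of all tested genes, with a median of 0.00. The gene that fell was Kdm5a, which encodes a demethylase described as a coactivator of CLOCK and BMAL1, at -0.28 (SE 0.07, limma adjusted p = 0.0380). Its next brightest probe set gave 0.03, and the mean over its probe sets was -0.06 (limma adjusted p = 0.861). Kdm5a was also not called without shControl replicate 1 (0.166), shControl replicate 2 (0.212) or shLSD1 replicate 2 (0.0645), without the filter (0.0562) or without the intensity trend (0.0890). Prkca, the protein kinase C alpha gene, had signals of 641 and 719 on the shLSD1 arrays, against 837 and 851 on the shControl arrays. Both shLSD1 arrays were lower, and at -0.31 it missed the threshold (SE 0.09, limma adjusted p = 0.0548), which it passed without shLSD1 replicate 2 (-0.40, limma adjusted p = 0.0205), with median centring (0.0388) and with the replicate block (0.0342). Csnk1d and Csnk1e, casein kinase genes that set the stability of PER proteins, measured 0.20 and -0.08 (limma adjusted p = 0.110 and 0.402).

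**Figure D4:**
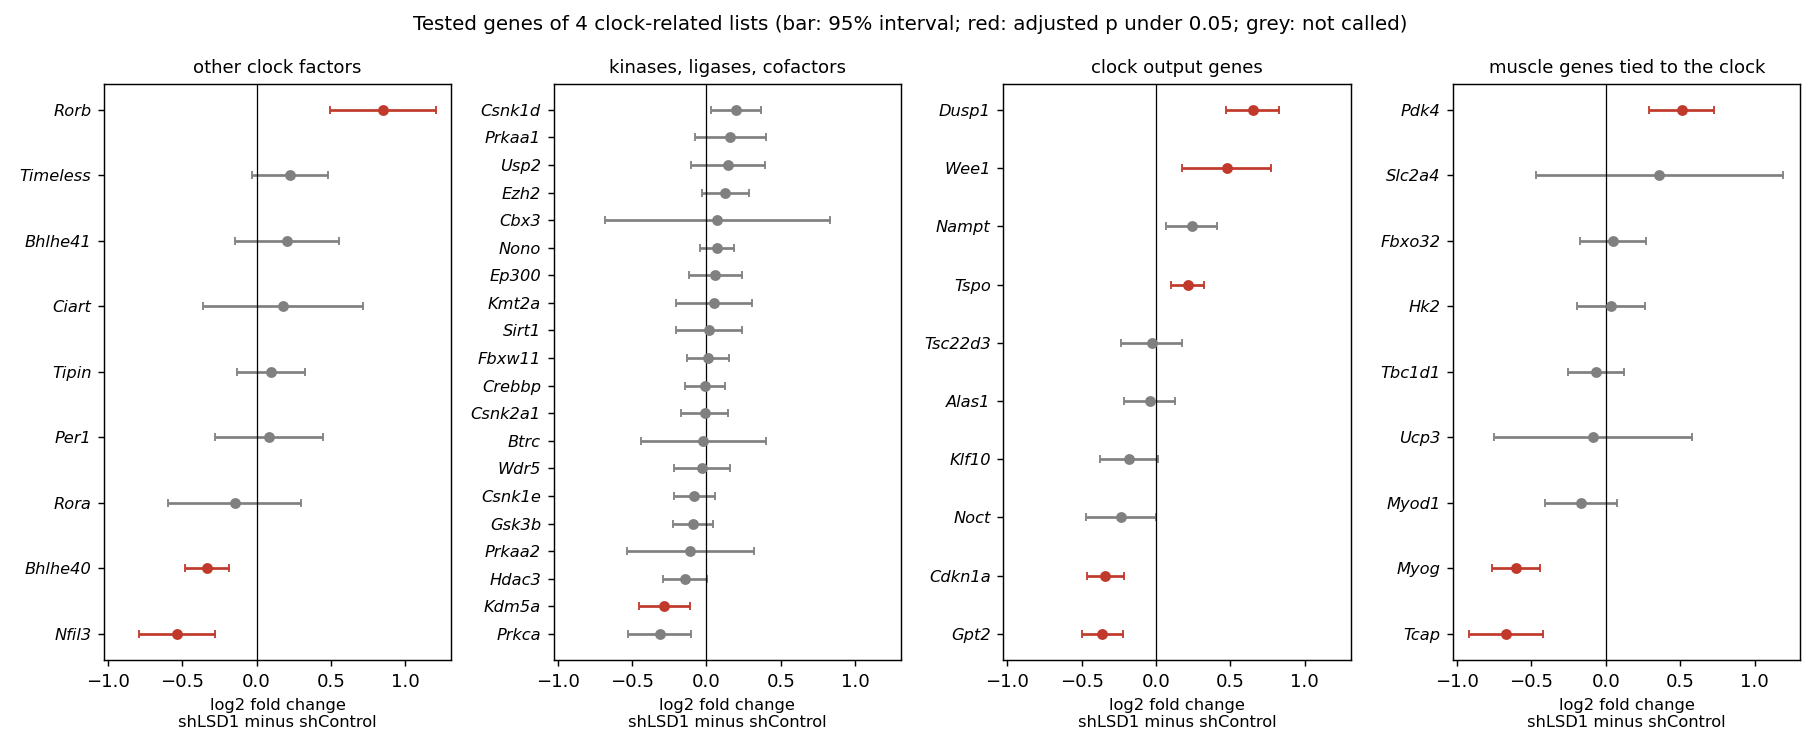
Log2 fold change (shLSD1 minus shControl) with 95% intervals for the tested genes of 4 clock-related lists, with genes at an adjusted p under 0.05 in red. The values of the genes in red range from Tcap at -0.67 to Rorb at 0.85, and 1 of 20 kinase, ligase and cofactor genes is red.

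Genes known as outputs of the clock moved both ways. Of 10 tested output genes, 3 rose and 2 fell, or 50% beside 15.8% of all tested genes, with a median of -0.04, and 6 more stayed below the filter. This list was chosen with earlier results of these data known, so its share is only a description. Wee1, a mitotic inhibitor kinase gene under E-box control in mouse liver, had signals of 769 and 704 on the shLSD1 arrays, against 599 and 469 on the shControl arrays. It rose by 0.47 (SE 0.13, limma adjusted p = 0.0465), and by 0.30 without shControl replicate 2, where the call was lost (limma adjusted p = 0.233), as it was without shLSD1 replicate 1 (0.100). Wee1 was also not called with median centring (0.0552), without the filter (0.0840), without the intensity trend of the variance (0.141) or with its probe sets averaged (0.0963). Dusp1 (0.65) and Tspo (0.21) also rose, and Gpt2 (-0.36) and Cdkn1a (-0.34) fell. Without the intensity trend none of these 4 was called (limma adjusted p = 0.0502 for Dusp1, 0.166 for Tspo, 0.0620 for Gpt2 and 0.0948 for Cdkn1a). Tspo, Gpt2 and Cdkn1a missed the threshold with 1 shControl array left out, whichever it was, at limma adjusted p between 0.0580 and 0.230. Nampt, the rate-limiting enzyme gene of NAD salvage, measured 0.24 (SE 0.07, limma adjusted p = 0.0694), and Noct measured -0.24 (limma adjusted p = 0.164).

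Of 9 muscle genes listed as tied to the clock in muscle, 1 rose and 2 fell, or 33.3% beside 15.8% of all tested genes. Their median log2 fold change was -0.07, and this list too was chosen with earlier results of these data known. Tcap, a sarcomere gene, had signals of 357 and 395 on the shLSD1 arrays, against 617 and 580.1 on the shControl arrays, and fell by 0.67 with an SE of 0.11 (limma adjusted p = 5.88e-03, or 0.0685 without shControl replicate 1). Myogenin (Myog) fell by 0.61 and Pdk4 rose by 0.51 (limma adjusted p = 1.46e-03 and 0.0109). Myog, like Myod1, is also among the 8 skeletal muscle markers checked, 6 of which fell. Pdk4 was not called without shControl replicate 1 (0.0740) or without shControl replicate 2 (0.0862), and Myog was not called without the intensity trend (0.0511). Myod1, a myogenic factor under E-box control by CLOCK and BMAL1 in mouse muscle, had signals of 2322 and 2492 on the shLSD1 arrays, against 2413 and 3021 on the shControl arrays. The groups overlapped, and it measured -0.17 (SE 0.10, limma adjusted p = 0.319).

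**Figure D5:**
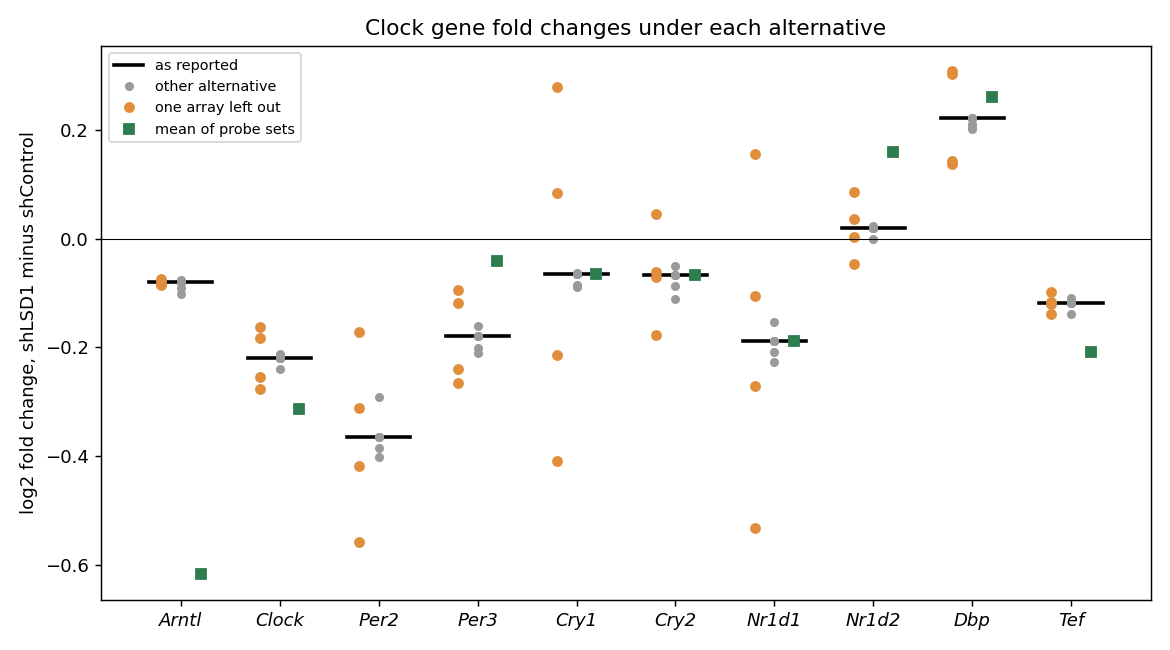
Log2 fold change (shLSD1 minus shControl) of each clock gene as reported (black line), with each array left out (orange), with its probe sets averaged (green) and under the other alternatives (grey). Per2 has no green point, since its average lay below the filter. Arntl ranges between -0.62, with its probe sets averaged, and -0.07. Cry1 ranges between -0.41 and 0.28 and Nr1d1 between -0.53 and 0.16, while Clock stays between -0.31 and -0.16 and Dbp between 0.14 and 0.31.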

How the data were processed

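RNA of 2 shLSD1 and 2 shControl samples was measured on Affymetrix 3' expression arrays. The authors deposited MAS5 signal intensities, which are linear and not log-transformed, made with MAS5 and Affymetrix Expression Console per the submitters' processing notes, with versions not given in the sources used here. After trimming 2% at each end, the mean of each array was 500.003. Signals under 1 were set to 1 (503 to 704 per array) before log2 was taken, and 64 control probe sets were left out.

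GEO's platform annotation named a single gene for 34945 probe sets. It named several for 932 probe sets and no gene for 9160. Each gene was represented by its brightest probe set, avoiding the x_at type where another existed. The filter was the median mean log2 signal, 6.03. Groups were compared with limma 3.58.1 (R 4.3.3), using lmFit and eBayes with the prior variance following intensity and 7.54 degrees of freedom in all. Tests were two-sided, with Benjamini-Hochberg adjustment over 10879 genes and a threshold of 0.05. Figures used matplotlib 3.10.9. Tested on simulated data, false calls stayed near the nominal rate when spreads followed the distribution limma fitted, and exceeded it when each gene's moderated spread was taken as true. The former setting draws from the model being tested, so it cannot show that the model suits these arrays.

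The members and lists were chosen with earlier results of these data known. The text names all members, Kdm1a, and from each other list every called gene or, where none was called, the 2 smallest adjusted p. Per1, Rora, Csnk1d, Csnk1e, Prkca, Nampt, Noct and Myod1 were named outside that rule, after their values were seen. The replicate number was not used as a block, since the labels do not say what arrays of the same number share. Same-numbered arrays did not deviate together (r = 0.0029 over 10879 genes, which are not independent).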

Additional observations from a re-analysis of the deposited data

How the results depend on the processing

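The fit was repeated with a replicate block and with single arrays left out. It was also repeated with quantile normalization or median centring, log2(signal + 32), the filter removed or set at the 75th percentile (log2 8.91), constant prior variance (no intensity trend), robust variance, probe sets averaged per gene, and each probe set on its own. A lone array of a group was assumed to vary like the other group. The number of clock genes called higher was 0 in all of these fits, though not every clock gene was tested in each. With the filter at the 75th percentile, Per2, Per3, Cry1, Cry2 and Nr1d1 were not tested, nor was Per2 with probe sets averaged. The number called lower was 0, or 1 with the replicate block and with every probe set, and 0 to 1 with an array left out. Counts of values for single genes leave out the fit of each probe set on its own, where Arntl 1457740_at was called lower. Of 124 values for single clock genes, 116 kept their direction and side of the threshold, 2 (both Clock) crossed it and 6 changed sign. Cry1 changed to 0.28 without shControl replicate 1 and 0.08 without shLSD1 replicate 2, Nr1d1 to 0.16 without shControl replicate 1, Cry2 to 0.045 and Nr1d2 to -0.046 without shLSD1 replicate 2, and Nr1d2 to -0.0013 with median centring. With an array left out, the values ranged between -0.41 and 0.28 for Cry1, -0.18 and 0.045 for Cry2, -0.53 and 0.16 for Nr1d1, -0.046 and 0.085 for Nr1d2, and -0.051 and 0.22 for Per1. Over all genes, 349 to 1151 were called higher and 228 to 1041 lower with an array left out, 375 and 262 without the intensity trend, and 494 and 407 with probe sets averaged, and the cause was not tested. With the replicate block, 1236 and 984 were called. Of 167 values for the 13 other named genes that were called, 133 kept the call, 34 lost it and 0 changed sign. Most of these losses, 9 and 9, came with constant prior variance and without shControl replicate 1, and 8 more without shControl replicate 2. Of 101 values for the 8 named genes that were not called, 96 kept their direction and side, 3 (all Prkca) passed and 2 changed sign, which were Per1 at -0.051 without shLSD1 replicate 1 and -0.024 without shControl replicate 1. The prior variance followed intensity, and the SE was 0.07 on the brightest and 0.27 on the dimmest Clock probe set.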
